A study of Mus musculus with 6 samples.

Results

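The mitochondrial ribosomal proteins were followed through translating ribosome affinity purification with sequencing (TRAP-seq) of mouse choroid plexus (ChP), the epithelial tissue in the brain ventricles that makes cerebrospinal fluid. Members were all rows of the expression table whose gene symbol starts with Mrpl or Mrps and a number, where Mrpl marks the large and Mrps the small subunit. This gave 77 of 24354 genes, with 48 Mrpl and 29 Mrps symbols. The comparison asked how the mRNAs of these proteins on ribosomes of ChP cells differed between embryonic day 16.5 (E16.5) and the adult, by subunit and gene by gene. Values were FPKM, read numbers scaled to transcript length and to the mapped reads of the library, as the authors deposited them. The test took the 11601 genes whose FPKM averaged above 1, and 76 members were among them.

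The groups were 3 adult samples harvested at 60 days after birth and 3 samples at E16.5, all from mice of the genotype FoxJ1:cre x bacTRAP (EGFP:L10a). In these mice Cre, driven by the promoter of Foxj1, a gene of cells with motile cilia, turned on a ribosomal protein L10a tagged with EGFP, and mRNA was recovered with the tagged ribosomes. Both groups carried the same transgenes, and no input RNA or untagged control was analysed here. The study's methods describe each sample as lateral ventricle ChP pooled from 3 mice or 3 litters, whereas the series text speaks of 3 mice at each age, so p-values cover the spread between these samples, and how many animals stand behind each was not settled. L10a belongs to cytosolic ribosomes. The values therefore concern nuclear-encoded mRNAs in the cytosol, and genes encoded by mitochondrial DNA are absent from the table.

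Mitochondria carry their own ribosomes, which translate the few proteins still encoded by mitochondrial DNA, all of them subunits of oxidative phosphorylation. The RNA of these ribosomes is made inside the organelle, while every protein in them is encoded in the nucleus, translated in the cytosol and imported. Some have homologues in the bacterial ribosome and others exist in mitochondria only. ChP epithelial cells are rich in mitochondria.

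The libraries differed in depth and composition. In small FPKM values a read counts as a fixed step, and these steps implied 3890000, 8810000 and 3080000 reads in adult replicates 1 to 3 against 12400000 to 15700000 at E16.5, from 62 to 85 low values per sample. The step was chosen to bring most of these values near whole reads, 71.8% to 88.7% lay within 0.1 of one, and the depth is an estimate. Mir6236 held 32.7% to 51.7% of the summed FPKM in the adult samples and 13.3% to 15% at E16.5. Of 12 markers of ChP epithelium, 4 were called higher in the adult and 2 at E16.5. Their sum was 39715 to 55047 FPKM in the adult and 3887 to 4466 at E16.5, a gap carried by Ttr and Enpp2, without which (a choice made after the values were seen) the other 10 summed to 3906, 5013 and 3885 against 4224, 4103 and 3613 FPKM and overlapped. Ttr, the transthyretin gene and a defining marker, had a value of 0 in all 3 samples at E16.5. A value of 0 in this table can thus be a failed estimate, and zeros are given below as listed.

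The mitochondrial ribosomal protein mRNAs were lower in the adult ChP as a group. Their share of the summed FPKM, leaving out Mir6236, was 0.163%, 0.287% and 0.336% in adult replicates 1 to 3 and 0.804%, 0.746% and 0.798% at E16.5. The ages did not overlap. The median member stood at 4.78, 13.5 and 0.901 FPKM in the adult samples and at 26.1, 30.7 and 24.9 FPKM at E16.5, beside medians of 6.35, 8.84 and 3.99 and of 12, 12.2 and 11.4 FPKM over all genes tested. At E16.5 the median member was thus above the median gene in every sample, and in the adult only in replicate 2. More than 10 FPKM was reached by 25, 47 and 23 members in the adult samples (32.9%, 61.8% and 30.3%) and by 67, 67 and 61 at E16.5 (88.2%, 88.2% and 80.3%). Of all genes tested it was reached by 40.3%, 46.7% and 38.6% in the adult and by 55.2%, 55.4% and 53.7% at E16.5. In bulk samples fewer cells of a type and less RNA per cell cannot be told apart.

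**Figure D1:**
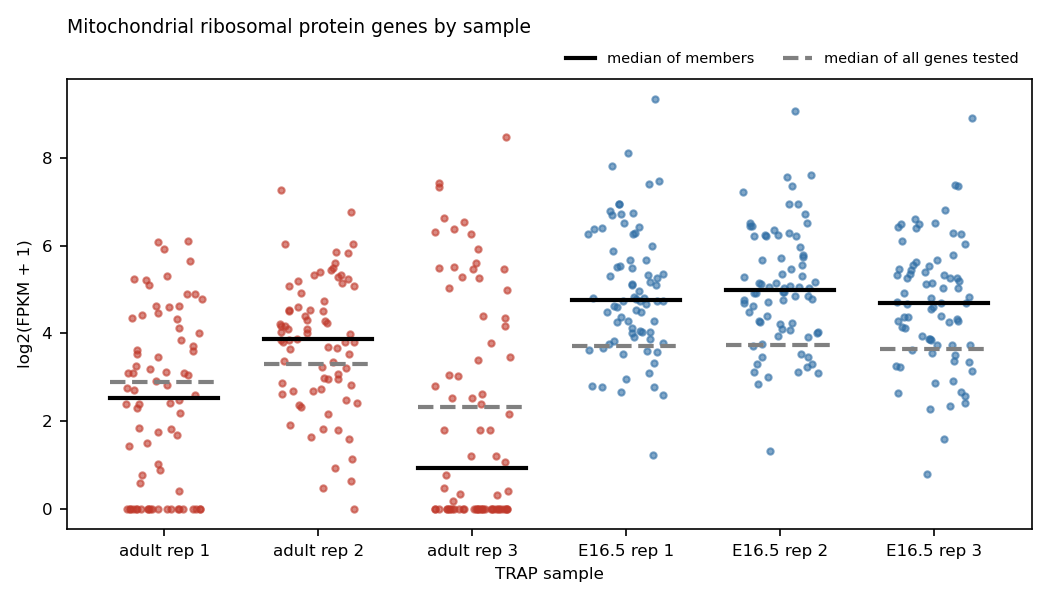
Level of the 76 tested mitochondrial ribosomal protein genes in each TRAP sample, as log2(FPKM + 1), with 1 point per gene (red adult, blue E16.5). Solid bars are medians of the members and dashed bars medians of all genes tested; 32 members lie at 0 in adult replicate 3 and 1 in adult replicate 2.

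Tested with limma on log2(FPKM + 1), 9 members were higher at E16.5 at an adjusted p of 0.05 and 0 were higher in the adult. Over all genes tested the same calls were made for 8.83% and 2.12%. In this fit the 9 of 76 are near that background, but the alternatives differed in this, with 4 of 76 against 7.44% at a pseudocount of 0.1 and 10 of 76 against 4.34% after quantile normalization. At an unadjusted p under 0.05, 40 members were higher at E16.5 (25.9% of all genes) and 0 in the adult (5.34%). Every adult sample was below every E16.5 sample for 39 of 76 members, against 31% of all genes, and above for 1, Mrpl37, against 7.39%. The fitted change, adult minus E16.5, was negative for 72 members and positive for 4, beside 8443 and 3158 of the 11601 genes tested. The median change of the members was -2.16 (quartiles -3.06 and -1.03), where the median over all genes was -0.86 (quartiles -1.79 and 0.10). Relative to all genes the members' median was -1.30 on the log2 scale, and taken with single adult samples it was -1.39, -0.59 and -2.0 (SD 0.71).

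The count of calls changed whichever library was left out, and the share of all genes called changed with it. Without adult replicate 1 it was 6 (4.63% of all genes), without adult replicate 2 it was 29 (14.7%) and without adult replicate 3 it was 18 (11.6%), while without E16.5 replicate 1, 2 or 3 it fell to 1, 1 and 2, with 0.22%, 0.14% and 0.565% of all genes. The number of members with every adult sample below every E16.5 sample was 42, 51 and 44 without adult replicate 1, 2 and 3 beside 37.1%, 42.7% and 37.8% of all genes. It was 43, 42 and 42 without E16.5 replicate 1, 2 and 3, beside 35.2%, 34.9% and 36%.

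**Figure D2:**
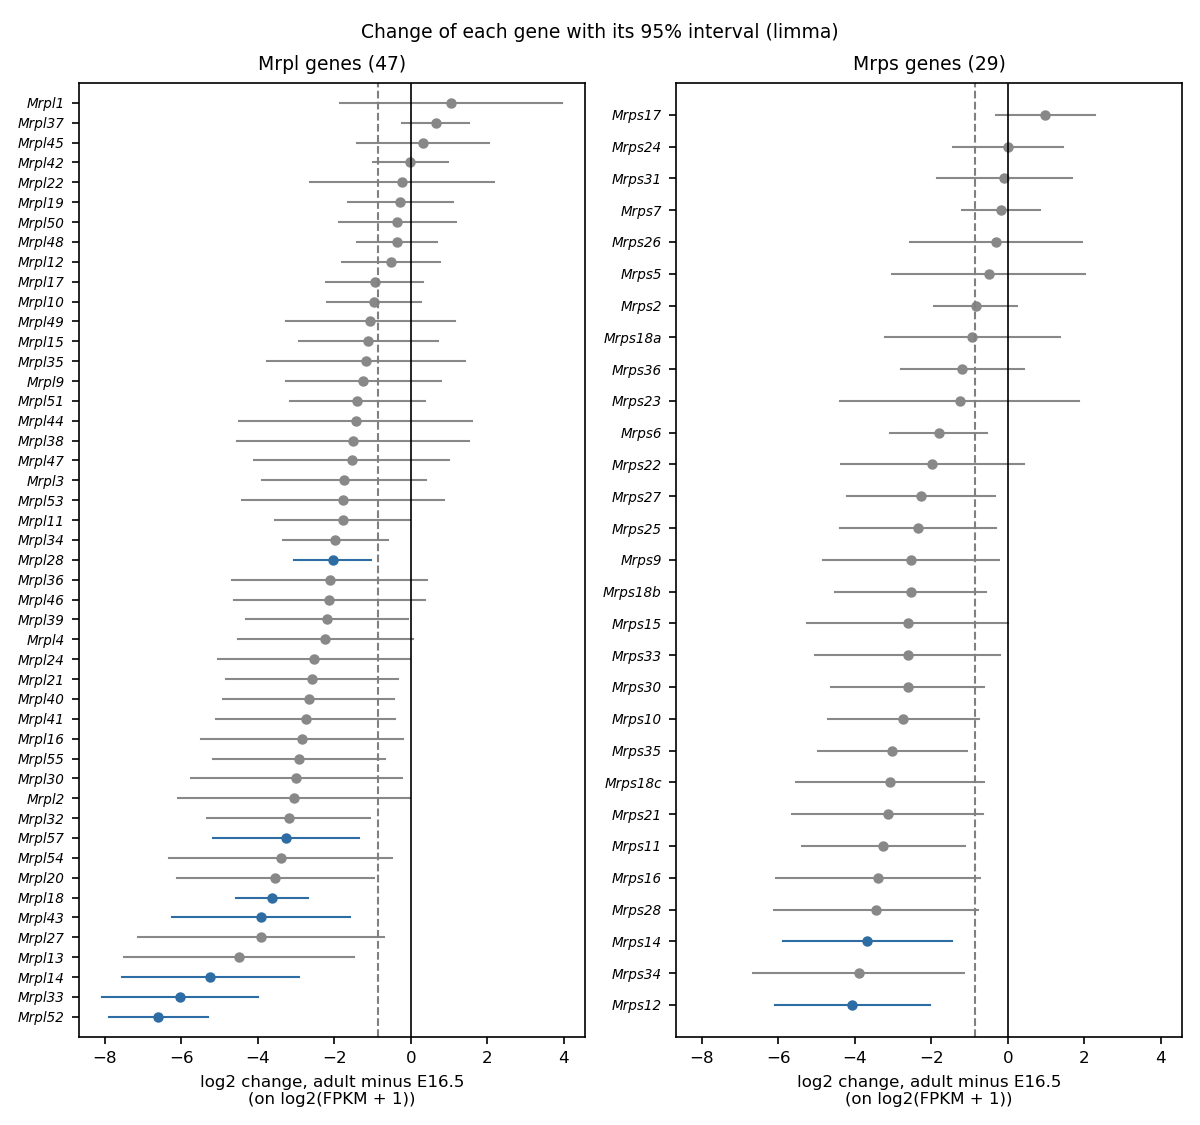
Log2 change (adult minus E16.5) of each tested gene with its 95% interval from limma, Mrpl genes on the left and Mrps genes on the right, in order of the change. The 9 genes past an adjusted p of 0.05 are blue, and the dashed line is the median of all genes tested (-0.86). Below 0 lie 72 of 76 points, beside 8443 of the 11601 genes tested.

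The promoters of the 9 genes that passed are shown first, at the letters they share with those of other mitochondrial genes, since nuclear respiratory factor 1 (NRF1), the ETS-family factor GABP (NRF2) and YY1 are known regulators of nuclear genes for mitochondrial proteins. RefSeq promoter windows (GRCm38.p6, 250 bases before to 50 after the annotated start) matched 68 of the 77 members. The letters GCGCA, any base and GCGC in a row, searched for NRF1 on both strands, were found in 13 of the 68 (19.1%), against 5.19% of all gene promoters and 12.1% of those of genes tested. CCGGAAG, searched for ETS factors on both strands, was found in 25 (36.8%), against 9.93% and 20.6%. AAGATGG, searched for YY1 on both strands, was found in 13 (19.1%), against 7.28% and 8.62%. The letters of the 3 searches do not contain each other, and a promoter can hold several.

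Any of these letters occurred in 42 of the 68 member promoters (61.8%), in 20% of all promoters and in 35.7% of those of genes tested. Among the 9 genes that passed it was 7, with none in Mrps14 and Mrpl28. A match is a description of letters and not a binding site, and whether the changes depend on it was not tested. Below, 1 match is given for each of the 7 genes, on the gene's strand with the match in capitals.
Mrpl52, ETS, chr14:54426900-54426928 (+): ggccacgcccaCTTCCGGttcccttgctc
Mrpl33, ETS, chr5:31613937-31613965 (+): ccgcgcatgccCCGGAAGtagtcgttgag
Mrpl14, NRF1, chr17:45686343-45686372 (+): aacccctggcGCGCAGGCGCagcgtgcggg
Mrps12, ETS, chr7:28741803-28741831 (-): aaggaggaaccCCGGAAGgggctggaggt
Mrpl43, ETS, chr19:45006437-45006465 (-): caaccccggaaCCGGAAGtcaccggttag
Mrpl18, ETS, chr17:12916314-12916341 (-): actgaaaacgCCGGAAGtagggggctgc
Mrpl57, NRF1, chr14:57826172-57826201 (+): tttgaatcctGCGCAGGCGCagaaggcgtc
In Mrpl52, Mrpl33, Mrpl14, Mrps12 and Mrpl43 the match shown began within 12 bases of the RefSeq start. For Mrpl33 that start lies inside the longer span that GENCODE gives the gene. The match shown began at -240 from the RefSeq start in Mrpl18 and at -57 in Mrpl57. For Mrpl18 the whole promoter window, the match included, lies inside the span that GENCODE gives the gene.

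The factors themselves did not pass the test. Nrf1 stood at 20.8, 2.63 and 0 FPKM in the adult samples and 7.56, 17.1 and 8.57 at E16.5 (log2 change -1.41, limma adjusted p = 0.408). Gabpa, the DNA-binding subunit of GABP, was at 15.3, 11.6 and 6.48 FPKM against 26.9, 15.9 and 28.3 (-1.06, limma adjusted p = 0.191). Yy1 was at 14.4, 11.2 and 27.6 FPKM against 30.6, 28.6 and 21.1 (-0.65, limma adjusted p = 0.367). The ages overlapped for Nrf1 and Yy1, and every adult sample was below every E16.5 sample for Gabpa.

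Among the large-subunit genes that passed, Mrpl52 (chr14:54426909-54429756, GRCm38), a protein found in mitochondrial ribosomes only, had the lowest change. It was listed at 0, 0.541 and 0 FPKM in the adult samples and at 122.7, 163 and 67.99 FPKM at E16.5 (log2 change -6.60 ± 0.55 SE, limma adjusted p = 0.002). At the E16.5 level the estimated depth would have given 95.4 to 274 reads in the adult samples. It ranked 6th of 76 members by mean FPKM at E16.5 and 75th in the adult, and was called in all 17 alternative fits that could test it.

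Mrpl33 (chr5:31596935-31664384), the homologue of bacterial L33, was listed at 0, 6.87 and 0 FPKM in the adult and at 175.4, 74.6 and 164.3 FPKM at E16.5 (-6.03 ± 0.87, limma adjusted p = 0.00988; called in 13 of 17 alternatives). Mrpl14 (chr17:45686322-45698495), the homologue of L14 on the face of the large subunit that meets the small one, was at 0, 11.8 and 0 FPKM against 108.9, 73.2 and 83.7 (-5.24 ± 0.99, limma adjusted p = 0.0224; 10 of 17). Mrpl43 (chr19:45004829-45006442), a mitochondria-specific protein, was at 0, 9.15 and 0 FPKM against 49.9, 19.9 and 31.8 (-3.91 ± 1.0, limma adjusted p = 0.0466; 5 of 17). All 3 were above 0 in a single adult sample, replicate 2, the deepest of them. Mrpl14 and Mrpl43 overlap exons of Tmem63b and Twnk on the opposite strand, and whether the authors counted by strand is not stated. The share of 50-base stretches found in other annotated genes was 30.3% for Mrpl33, 9.9% for Mrpl14 and 22.9% for Mrpl43.

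Mrpl18 (chr17:12911349-12916345), which sits in the central protuberance, the crown of the large subunit, was detected in every sample. It stood at 6.08, 10.4 and 4.75 FPKM in the adult samples and at 105.4, 89.8 and 90.9 FPKM at E16.5 (-3.63 ± 0.40, limma adjusted p = 0.0044), and was called in 16 of 18 alternatives. Its exons overlap Tcp1 on the opposite strand. Mrpl28 (chr17:26123500-26126613), also detected in all samples, was at 23.1, 25.8 and 9.47 FPKM against 76.5, 76.5 and 76.7 (-2.04 ± 0.43, limma adjusted p = 0.0307; called in 11 of 18), and shares no stretch of 50 bases with another annotated gene. Mrpl57 (chr14:57826234-57829296), a small mitochondria-specific protein, was at 0.843, 6.28 and 0 FPKM against 19.8, 26.1 and 19.7 (-3.26 ± 0.82, limma adjusted p = 0.046; 7 of 17). For these genes too the ages did not overlap.

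From the small subunit Mrps12 and Mrps14 passed. Mrps12 (chr7:28739641-28741820), the homologue of S12 at the site where codons are read, was at 8.50, 5.63 and 0 FPKM in the adult samples and at 104.6, 49.5 and 54.3 FPKM at E16.5 (-4.07 ± 0.87, limma adjusted p = 0.0308; called in 10 of 17 alternatives). Mrps14 (chr1:160195215-160202170), a protein of the subunit's head, was at 0, 8.36 and 0 FPKM against 23.4, 32.5 and 22.5 (-3.67 ± 0.95, limma adjusted p = 0.0493; 5 of 17). Each adult value was below each E16.5 value in both.

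**Figure D3:**
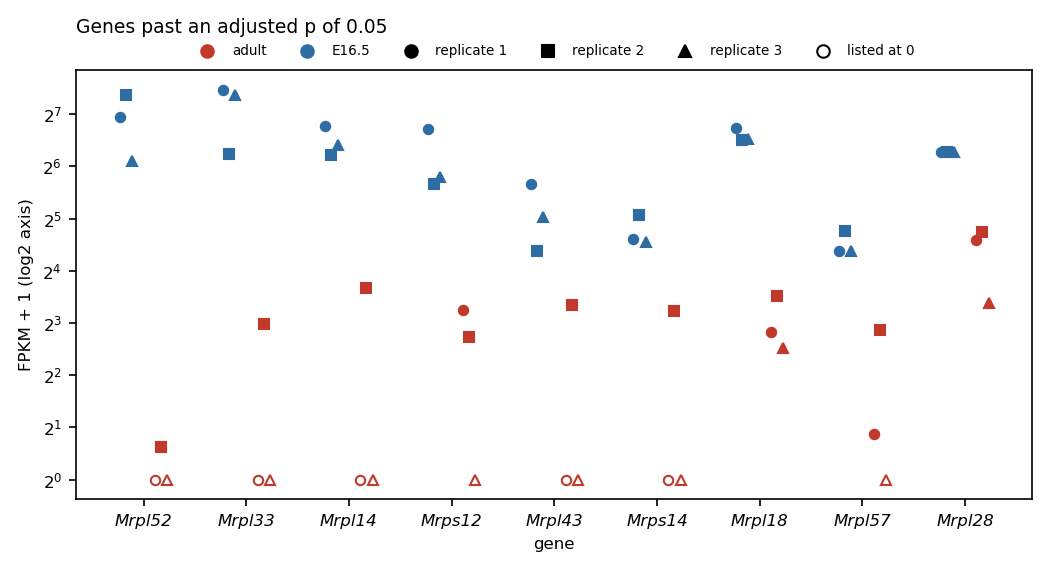
FPKM + 1 on a log2 axis in each sample for the 9 genes past an adjusted p of 0.05 (blue E16.5, red adult, symbol shape by replicate, open symbols listed at 0). Adult values lie below E16.5 values in every gene; Mrpl52, Mrpl33, Mrpl14, Mrpl43 and Mrps14 are above 0 in adult replicate 2 alone.

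Many adult values were zeros. Among tested members 19, 1 and 32 were listed at 0 in adult replicates 1 to 3 (25%, 1.32% and 42.1%) and 0 in any E16.5 sample, where 22%, 10.3% and 36.4% of all genes tested were at 0 in the adult samples and 3.68% to 4.02% at E16.5. Of the 9 genes that passed, 7 were at 0 in 1 or 2 adult samples, and Mrpl18 and Mrpl28 in none. A gene that is lower in the adult is also more often at 0 there, so classes by zeros are no separate evidence of a decrease. Fitted changes of genes with zeros depend on the pseudocount. Whether the zeros are failed estimates was not tested.

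By mean FPKM over all 6 samples the 5 highest members were Mrps6, Mrps21, Mrpl42, Mrpl13 and Mrpl20, and none of them passed. At E16.5 alone 4 of the 10 highest did, Mrpl33 (5th), Mrpl52 (6th), Mrpl18 (9th) and Mrpl14 (10th), beside 8.83% of all genes. In the adult these 4 ranked 68th, 75th, 44th and 57th. The E16.5 values set both this order and the calls, so the count and the lower adult ranks are no separate evidence. Mrps6, the homologue of S6 in the platform of the small subunit, ranked first at both ages, at 67.8, 153.7 and 357.3 FPKM in the adult samples and at 644.9, 534.1 and 477.8 FPKM at E16.5 (-1.81 ± 0.55, limma adjusted p = 0.0731). The ages did not overlap, and Mrps6 alone made up 8.01% to 21.3% of the members' summed FPKM. Without it the share of the other members was 0.15% to 0.264% in the adult and 0.643% to 0.677% at E16.5.

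Mrps6 (chr16:92058270-92112227) overlaps Slc5a3, the myo-inositol transporter gene, on the same strand, and 32.2% of its 50-base stretches occur in other annotated genes. Slc5a3 itself, named after its values were seen, was at 149.2, 127.0 and 61.4 FPKM in the adult samples and at 43.1, 51 and 56.5 FPKM at E16.5 (1.06 ± 0.39, limma adjusted p = 0.116). Its adult samples were all above those at E16.5. How reads were divided between these genes was not tested.

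Mrps21 ranked 2nd at E16.5 and 7th in the adult, Mrpl13 3rd and 23rd, and Mrpl20 4th and 20th. Mrps21, the homologue of S21, was at 2.51, 39.4 and 91.5 FPKM in the adult and at 275.2, 194.3 and 166.6 FPKM at E16.5 (-3.14 ± 1.07, limma adjusted p = 0.0972). Mrpl13, the homologue of L13, was at 3.94, 55.7 and 0 FPKM against 169, 189.2 and 97.1 (-4.49 ± 1.29, limma adjusted p = 0.0641), with Mtbp on the opposite strand. Mrpl20, the homologue of L20 that joins the bacterial subunit early in its assembly, was at 20.5, 42.3 and 0.707 FPKM against 224.4, 121.5 and 88.4 (-3.54 ± 1.11, limma adjusted p = 0.0791). These 3 did not overlap between the ages and did not pass the threshold, and their adult samples were spread widely.

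Mrpl42 differed from them. This mitochondria-specific protein of the large subunit was at 66.2, 108.5 and 170.8 FPKM in the adult samples and at 75.6, 147.5 and 112 FPKM at E16.5, with a change of -0.01 (95% interval -0.99 to 0.97, limma adjusted p = 0.992). The ages overlapped, and it ranked 2nd among members in the adult and 7th at E16.5. A processed pseudogene, Gm6419, shares part of the 16.6% of its stretches found elsewhere.

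At the other end of the order, 4 members had a positive fitted change and none passed. Mrpl37, a mitochondria-specific protein of the large subunit and the one member with all adult samples above all E16.5 samples, was at 28.6, 41.1 and 44.4 FPKM in the adult and at 25.8, 17.9 and 27.5 FPKM at E16.5 (0.66, 95% interval -0.22 to 1.53, limma adjusted p = 0.267). Mrps17, the homologue of S17, was at 36, 29.1 and 76 FPKM against 25.7, 34.6 and 10.8 (0.98 ± 0.56, limma adjusted p = 0.266). Mrpl1, the homologue of L1, had the highest change, 1.06 ± 1.24 (limma adjusted p = 0.577), from 1.02, 6.11 and 60 FPKM in the adult and 1.33, 7.65 and 3.82 FPKM at E16.5. That value rested on adult replicate 3, without which the change was -0.28.

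Mrps24, which is the mitochondrial homologue of S3, was at 21, 22 and 97.5 FPKM in the adult samples and at 26.9, 43.5 and 39.3 FPKM at E16.5 (-0.00, 95% interval -1.44 to 1.44, limma adjusted p = 0.999). Mrpl45, near the tunnel through which the new protein leaves, holds the ribosome at the inner membrane. It was at 23.7, 5.41 and 31.8 FPKM in the adult samples and at 24.3, 8.42 and 10.3 FPKM at E16.5 (0.32, 95% interval -1.40 to 2.03, limma adjusted p = 0.791). Both genes overlapped between the ages, and their intervals reach past 1 log2 unit in each direction.

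By subunit, 7 of 47 tested Mrpl genes and 2 of 29 Mrps genes were called higher at E16.5, beside 8.83% of all genes. The median change was -2.04 for Mrpl and -2.53 for Mrps genes, a difference of 0.49 where the same difference taken with single adult samples was 0.45, -0.14 and -0.17 (SD 0.35). Within samples the mean log2(FPKM + 1) of Mrpl genes exceeded that of Mrps genes by 0.31, 0.23 and -0.07 in the adult and by 0.12, 0.19 and 0.38 at E16.5. These ranges overlapped, so no shift between the subunits was seen beyond the spread of the samples. The ratio of summed Mrpl to summed Mrps FPKM, with Mrps6 left out, was 2.06, 2.6 and 1.72 in the adult and 2.2, 2.27 and 2.38 at E16.5, which also overlapped.

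Symbols do not always give the place in the ribosome. Mrps18a and Mrps30 encode proteins of the large subunit, and Mrps36 encodes a component of the alpha-ketoglutarate dehydrogenase complex and not of the ribosome. Assigned by position, the medians were -2.04 for 49 tested large-subunit genes and -2.54 for 26 small-subunit genes. Of these 7 and 2 were called higher at E16.5, beside 8.83% of all genes. Mrps30 was at 2.21, 9.27 and 0.235 FPKM in the adult samples and at 13.2, 32.4 and 19 FPKM at E16.5 (-2.62 ± 0.86, limma adjusted p = 0.0879). Mrps36 was at 0, 0.89 and 1.29 FPKM against 5.82, 1.5 and 2.01 (-1.19 ± 0.69, limma adjusted p = 0.27), and 33.7% of its stretches occur elsewhere, its own processed pseudogenes included.

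Mrps18a, Mrps18b and Mrps18c are paralogs that carry the name of bacterial S18. Mrps18a was at 59.5, 18.4 and 2.47 FPKM in the adult samples and at 30, 45.9 and 18.3 FPKM at E16.5 (-0.93 ± 0.98, limma adjusted p = 0.532), and the ages overlapped. Mrps18b was listed at 0 in all 3 adult samples and at 12.5, 7.58 and 0.718 FPKM at E16.5 (limma adjusted p = 0.0926), with 56% of its stretches shared, among them with a processed pseudogene. Mrps18c was at 4.27, 0.378 and 1.09 FPKM against 21.4, 75.1 and 4.32 (-3.07 ± 1.05, limma adjusted p = 0.0987). For Mrps18b and Mrps18c each adult value was below each E16.5 value, by a small margin in both. None of the 3 passed.

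Places within the large subunit are given as descriptions, since no test was made between them. The stalk, which recruits translation factors, is made of Mrpl10, Mrpl11 and Mrpl12. Mrpl12 was at 33.5, 57 and 12.7 FPKM in the adult samples and at 49.8, 34.5 and 42.7 FPKM at E16.5 (-0.51 ± 0.55, limma adjusted p = 0.544). Mrpl10 was at 13.3, 16.2 and 7.28 FPKM against 37.2, 14.3 and 25 (-0.97 ± 0.53, limma adjusted p = 0.247). These 2 overlapped. Mrpl11 was at 4.19, 2.44 and 0.122 FPKM against 10.5, 7.05 and 7.84 (-1.78 ± 0.76, limma adjusted p = 0.157), with every adult value lower. The 5 tested genes at the exit tunnel had a median of -0.95 and 0 calls. The 6 genes classed here at the central protuberance had a median of -2.38 and 1 call, Mrpl18, where 8.83% of all genes were called higher at E16.5. Many members, Mrpl52 among them, were assigned no place, and the listings of places may not be complete.

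Members classed with a bacterial homologue (45 tested, Mrps18c included) had 6 calls and a median of -2.53. Those classed as mitochondria-specific (30 tested, with Mrps18a and Mrps18b counted here despite their name) had 3 calls and a median of -2.05. The share of all genes called higher at E16.5 was 8.83%. Mrpl23, a protein of the exit tunnel, was listed at 0 in all 6 samples, was not tested, and shares 51.7% of its stretches, with its pseudogene Mrpl23-ps1 among others. Of the 77 members 27 share no stretch of 50 bases with another annotated gene, 12 share over 30%, and 23 have exons that overlap another coding gene. The members lie on 17 chromosomes.

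The order of the members by level was more alike between E16.5 samples than between adult samples. Spearman's rho over the 76 members was 0.72 to 0.841 between E16.5 samples, 0.307 to 0.43 between adult samples and 0.117 to 0.605 between ages, and over all genes tested 0.836 to 0.852, 0.603 to 0.722 and 0.474 to 0.665. Between ages adult replicate 2, the deepest adult library, gave 0.483 to 0.605 over the members, and adult replicates 1 and 3 gave 0.117 to 0.244. The part of depth in these values was not tested. The points are genes, which share libraries and depth. Of the 10 highest members at each age 3 were shared, Mrps6, Mrps21 and Mrpl42.

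Member transcripts are short. The longest coding transcript had a median of 1328 bases, against 3220 bases over the 10816 of 11601 tested genes with a length, and the change rose with length, with a rho of 0.437 over the members and 0.302 over those genes. The 38 shorter members had a median change of -2.70 and 6 calls, and all genes below 1328 bases a median of -1.94, with 226 of 1122 called. The 38 longer members had a median of -1.33 and 3 calls, and all genes at or above that length a median of -0.72, with 721 of 9694 called. Members were thus lower than genes of their length class in both classes, by less than against all genes. The part of length in the result was not tested further.

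**Figure D4:**
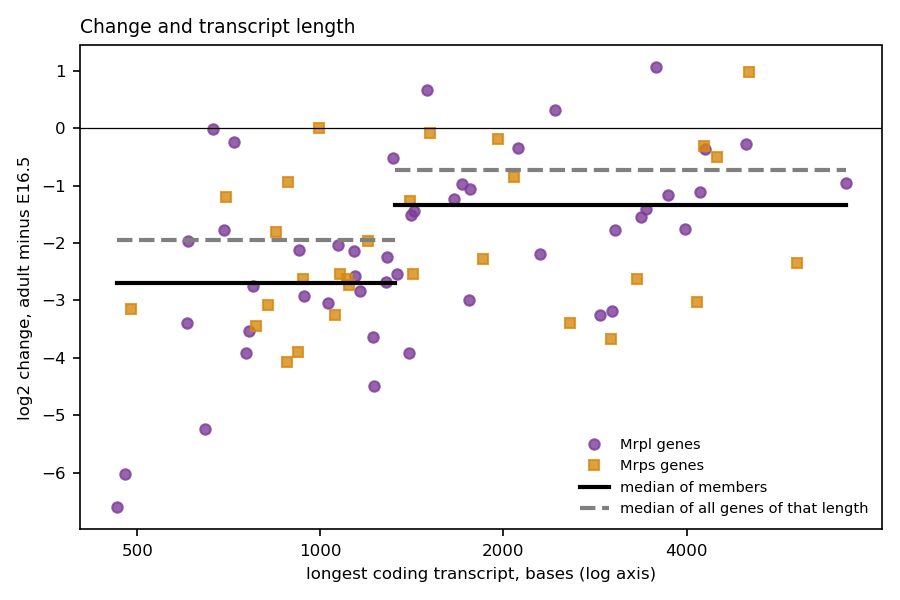
Log2 change (adult minus E16.5) of each tested member against the length of its longest coding transcript in bases on a log axis, circles for Mrpl and squares for Mrps genes. Solid lines are medians of the members below and above 1328 bases (-2.70 and -1.33), dashed lines those of all genes of these lengths (-1.94 and -0.72).

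Cytosolic ribosomal proteins and oxidative phosphorylation subunits were lower in the adult as well. Over all genes tested 8.83% were called higher at E16.5 and 2.12% in the adult, and the median change was -0.86. Proteins of the cytosolic ribosome took 0.257%, 0.351% and 0.586% of the summed FPKM without Mir6236 in the adult samples and 1.22%, 1.27% and 1.49% at E16.5, with 16 of 68 tested genes higher at E16.5, 0 in the adult and a median change of -2.44. Nuclear subunits of oxidative phosphorylation took 1.86%, 3.82% and 3.69% against 6.86%, 6.75% and 7.29%, with 14 of 78 higher at E16.5, 1 in the adult and a median of -1.45. The mean log2(FPKM + 1) of members differed from that of cytosolic ribosomal proteins by 0.21, 0.63 and -0.25 in the adult and by -0.01, 0.01 and -0.46 at E16.5, which overlapped. Against oxidative phosphorylation subunits the difference was -3.41, -3.28 and -3.79 in the adult and -2.84, -2.75 and -2.87 at E16.5, which did not overlap. These means include zeros. In the adult samples 41.2%, 19.1% and 54.4% of tested cytosolic ribosomal protein genes were at 0, beside 22%, 10.3% and 36.4% of all genes tested. Whether their listed FPKM give the true level of cytosolic ribosomal protein mRNAs was not tested, so the nearness of the 2 means is a description only. For oxidative phosphorylation subunits it was 6.41%, 2.56% and 10.3%.

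**Figure D5:**
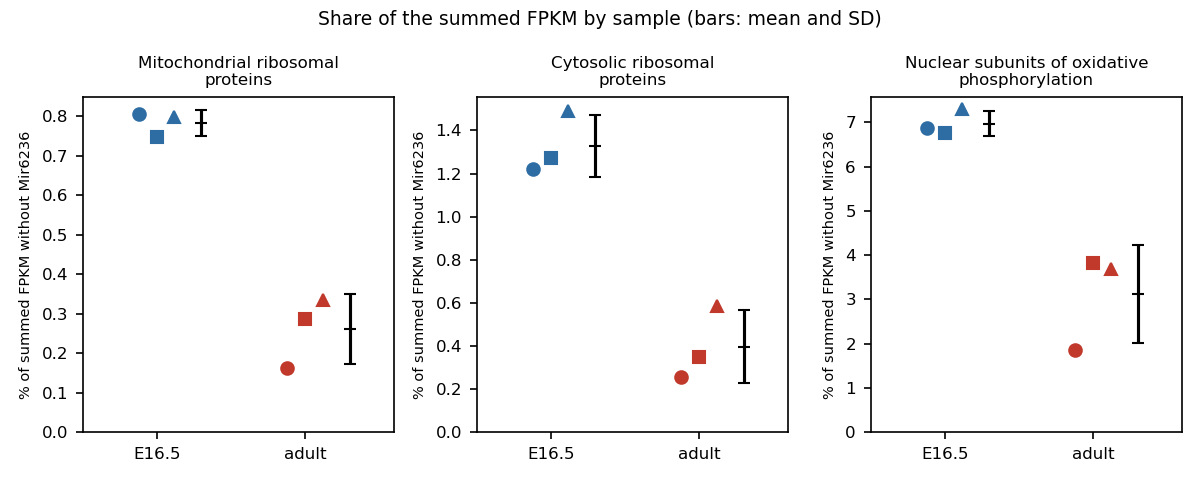
Share of the summed FPKM without Mir6236, in percent, held by mitochondrial ribosomal proteins, cytosolic ribosomal proteins and nuclear oxidative phosphorylation subunits in each sample (blue E16.5, red adult, shape by replicate), with the mean and SD of 3 samples beside them. In each panel all adult samples lie below all E16.5 samples, for the members at 0.163% to 0.336% against 0.746% to 0.804%.

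The rest of the mitochondrial translation machinery, 62 tested genes for translation factors, tRNA charging, assembly, rRNA modification and mRNA stability, had a median change of -0.94, near that of all genes. Of these 5 were higher at E16.5 and 1 in the adult, beside 8.83% and 2.12% of all genes. The median of their mean FPKM at E16.5 was 7.14, against 28.5 for the members. The change fell as that level rose, with a rho of -0.426 over the members and -0.286 over all genes tested. The part of level in these medians was not tested. Rars2, the mitochondrial arginyl-tRNA synthetase, was at 0, 0.61 and 0 FPKM in the adult samples and at 21.7, 11.2 and 12.1 FPKM at E16.5 (-3.72 ± 0.64, limma adjusted p = 0.0168; called in 11 of 17 alternatives). Kars, the lysyl-tRNA synthetase of both cytosol and mitochondria, was at 41.5, 35.7 and 27.1 FPKM against 87.3, 88.2 and 82.4 (-1.30 ± 0.30, limma adjusted p = 0.0376; 10 of 18). Neither gene overlapped between the ages.

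Among assembly and RNA factors, Rpusd3, a mitochondrial pseudouridine synthase, was listed at 0 in all adult samples. At E16.5 it was at 20.8, 13 and 17.3 FPKM (limma adjusted p = 0.00981, called in 14 of 17 alternatives). Of its 50-base stretches 24.8% occur in another annotated gene, Gm44280. Mtg1, a GTPase of ribosome assembly, was at 0.367, 0 and 0 FPKM against 9.16, 2.54 and 6.77 (-2.56 ± 0.66, limma adjusted p = 0.0477; 4 of 17). Slirp, which with Lrpprc stabilises mitochondrial mRNAs, was at 7.11, 53.4 and 13.6 FPKM against 194.8, 183.2 and 171.5 (-3.30 ± 0.65, limma adjusted p = 0.0243; 13 of 18), and 91.8% of the stretches of its longest transcript occur in other annotated genes, mainly Snw1. These 3 were lower in each adult sample than in each E16.5 sample.

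Lars2, the mitochondrial leucyl-tRNA synthetase, went the other way. It was at 923.5, 476.2 and 534.8 FPKM in the adult samples and at 136.6, 141.7 and 111.2 FPKM at E16.5 (2.25 ± 0.31, limma adjusted p = 0.00826), and was called in 15 of 18 alternatives. Lars2 stood far above the tested genes for tRNA charging, whose mean FPKM had a median of 7.07 in the adult and 6.07 at E16.5. Of its 50-base stretches 0.0663% occur in other annotated transcripts, those of the antisense gene Gm15564. Sequences outside the annotated transcripts were not compared, so this share does not show that its reads come from Lars2 alone. Whether reads from other sources add to its level was not tested. A further 6 ribosomal proteins whose symbols in the table fall outside the naming rule had a median of -1.89 and 0 calls. Ict1, named after its values were seen and a ribosome-bound peptide release factor, was the highest of them at E16.5, at 281.4, 257.5 and 224.3 FPKM against 63.5, 55.9 and 0.615 in the adult (-3.81 ± 1.29, limma adjusted p = 0.0966). Of 17 tested genes for mitochondrial transcription and DNA maintenance 0 passed, and their median was -0.69.

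Other markers moved with age beside the members. The 8 motile cilia markers summed to 264 to 408 FPKM in the adult and 1258 to 1610 FPKM at E16.5, and Foxj1, whose promoter drove Cre, was at 37.9, 45.8 and 62.4 FPKM against 207.7, 197.8 and 154.5 (-1.93 ± 0.30, limma adjusted p = 0.0127). The 6 red blood cell markers in the table summed to 0 to 6.49 FPKM in the adult, with 5 of them at 0 throughout, and to 54.1 to 324 FPKM at E16.5. The 9 neuronal and progenitor markers summed to 3.38 to 9.88 against 29.9 to 117 FPKM, and the 7 cell cycle markers to 4.83 to 45.8 against 52.3 to 96.7 FPKM. Mesenchymal markers (7) summed to 13.3 to 22 against 58.6 to 69.4 FPKM, while endothelial, macrophage and glial markers overlapped between the ages. The part of these cells in the members' change was not tested.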

How the data were processed

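Reads of 50 bases were aligned to mm10 with STAR (2.4.0 in the submitters' processing notes), and the authors deposited FPKM per gene, calculated by the Cuffquant module in Cufflinks. Its annotation and the use of strand are not given in the sources used here. The authors' read counts were not used here. FPKM were used as deposited, with no column of unknown sample. Genes with a mean FPKM above 1 were tested on log2(FPKM + 1), a scale that understates the change of low genes, with limma 3.58.1 in R 4.3.3 (trend, 3 against 3 samples, no covariates, Benjamini-Hochberg adjusted p of 0.05), after a check on simulated data. An exact permutation test of 3 against 3 cannot go below 0.1 and was not used.

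The members and all lists were chosen with earlier results of these data known. Named were all members past the threshold or not tested, the 5 of highest mean, the 5 highest and 5 lowest changes among members above 0 at both ages, the Mrps18 paralogs, Mrps30, Mrps36, the stalk, Mrpl45, and called genes of the related lists with Nrf1, Gabpa and Yy1. Coordinates, lengths and shared stretches of 50 bases came from GENCODE M21 (GRCm38, all 77 members matched), on the longest coding transcript. Depth was estimated from the step that 1 read makes in low FPKM values of 2520 genes, with 200 bases taken off each transcript's length, and covers counting only. Same-numbered samples of the 2 ages come with no stated link, and their deviations correlated at 0.000895, 0.0439 and 0.015, so samples were not paired. In all 17 alternatives were planned and 1 added after seeing the data. Groups of 3 are too small for the outlier test.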

Additional observations from a re-analysis of the deposited data

How the results depend on the processing

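The number of members higher at E16.5 (9, beside 8.83% of all genes) was 4 with a pseudocount of 0.1 (7.44% of all genes) and 4 with 0.01 (6.57%), 5 without a filter on low values (5.43%), 15 among genes above 1 FPKM in every sample of one age (17.1%), 5 after median-ratio scaling (5.69%), 37 after scaling to the same sum of FPKM (26.7%), 9 at the same sum without Mir6236 (10.2%), 10 after quantile normalization (4.34%), 6 without a trend (8.18%), 3 at an adjusted p of 0.01 (1.14%), and 1 to 29 with single samples left out. Restricted to genes above 0 in every sample, an alternative chosen after seeing the data, it was 3 of 38 members (6.87%). With the replicate number as a block it was 7 (3.9%), and the numbers give no pairing. In no alternative was a member called higher in the adult. The members' median relative to all genes (-1.30) was below 0 in every alternative, from -2.23 with a pseudocount of 0.01 to -0.63 among genes above 0 in every sample. Scaling also moved the median over all genes, which was -0.86 as deposited, -0.58 after median-ratio scaling, -1.57 at the same sum and 0.01 after quantile normalization. The difference between Mrpl and Mrps medians (0.49) was 0.71 with a pseudocount of 0.1, 0.02 with 0.01, 0.79 at the same sum without Mir6236, -0.00 after quantile normalization, and -0.18 to 0.60 with single samples left out. Among the members named, 8 turned sign in some alternative. Median-ratio scaling gave 0.33 for Mrpl42 and 0.33 for Mrps24. Quantile normalization gave 0.41, 0.39 and, for Mrps36 (-1.19 as reported), 0.33. Scaling to the same sum gave -0.15 for Mrpl37 and -0.47 for Mrpl45. With single samples left out the change ranged from -0.28 to 2.18 for Mrpl1, -0.98 to 0.06 for Mrpl12, -0.34 to 0.33 for Mrpl42, -0.14 to 1.03 for Mrpl45, -1.89 to 0.17 for Mrps18a and -0.71 to 0.37 for Mrps24. None of these passed an adjusted p of 0.05, and the causes were not tested. The estimated depth was lowest in adult replicates 1 and 3, and its part in these results was not tested.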
